A study of Mus musculus with 32 samples.

Results

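Extra-synaptic (xNMJ) regions of the mouse tibialis anterior (TA), a fast ankle flexor of the hindlimb, were compared between 30 and 10 months of age. The comparison takes 16 of the 32 RNA-seq libraries of the series, 8 from each age, chosen by their labels. All mice were male, wild type and of the C57BL/6JRj strain, were caged singly and ate the AIN93M diet. The 10-month group (10m xNMJ) had eaten this diet for 2 to 3 months and the 30-month group (30m xNMJ) for 16 months, so that age and time on the diet cannot be told apart. Neuromuscular junctions (NMJs) had been marked on muscle sections with fluorescent α-bungarotoxin, a toxin that binds acetylcholine receptors, and many small areas of fibre away from the stain were cut out by laser and pooled into each sample. The other 16 libraries came from the stained NMJ regions of the same 2 ages and are used here to share the estimate of spread and to test whether an age effect differed between regions. The p-values of genes, and the list counts drawn from them, therefore rest on the spread of both regions, except in fits of xNMJ libraries alone.

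A muscle fibre is one long cell with many nuclei. Those under the motor nerve terminal transcribe the genes of the synapse, and the far more numerous nuclei elsewhere transcribe the contractile, metabolic and calcium handling genes that fill most of the fibre. Nerve activity keeps receptor genes silent away from the junction, and a fibre that loses its nerve transcribes several of them along its length. A cut-out region also holds what lies between the fibres: capillaries with blood cells, connective tissue cells and resident immune cells.

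The 16 xNMJ libraries held between 4026648 and 13182475 counts, which puts a floor of 3 counts at between 0.266 and 0.933 CPM, the unit of counts scaled to a common library total. Transcripts of fast fibres filled them. Per length, Tnnt3, the fast troponin T, stood at 32056 ± 5619 TPM, the deposited length-scaled unit, at 10 months and 31965 ± 4773 TPM at 30 months, and Acta1, the skeletal muscle actin, at 18082 ± 4694 and 17987 ± 2761 TPM (mean ± SD, n = 8 each). None of the 8 fibre markers reached an unadjusted p under 0.05, with or without 30m replicate 5. Total counts, insert size, number of genes at 1 CPM or more, share of counts in the 10 most abundant genes and the summed level of synapse genes were compared by age in two-sided exact permutation tests over all splits of 8 against 8, and each gave an adjusted p of 0.849 over the 5 measures. The synapse sum was mostly that of 1 gene, Lrp4, and so tests little else. Lrp4 was at 718 to 9149 CPM in the xNMJ libraries and at 230 to 2473 CPM in the NMJ libraries, so the sum did not follow synaptic RNA. Without Lrp4, a choice made after seeing the data, the adjusted p of the sum was again 0.849. The labels do not say that the samples of a group came from separate mice, so p-values measure the spread between these samples.

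One library stood apart in its synaptic transcripts, 30m replicate 5. It was known before the comparison to carry synaptic transcripts, so its values are given here as a description and not as a test. It held the most counts of the 16, had an insert size of 130 bases against 79 to 109 in the others, and carried transcripts of the synapse. Chrne, the ε subunit of the adult acetylcholine receptor, which only nuclei under the nerve terminal are known to transcribe, was at 94.0 CPM in this library and at most at 1.12 CPM in the other 15. Nes, an intermediate filament gene of the subsynaptic fibre, was at 325 CPM there, with a median of 24.3 CPM at 10 months and of 11.3 CPM at 30 months. The subsynaptic list without Lrp4 summed to 1318 CPM in 30m replicate 5, against a median of 192 CPM in its group. Lrp4, the agrin receptor, was set aside in this sum because it made up 87.7% to 98.1% of the whole list in the other 15 libraries and 35.3% in this one. Of the 21 subsynaptic genes tested, 10 (47.6%) were highest of all 16 libraries in 30m replicate 5, which was the highest library for 8.38% of all tested genes. Over all tested genes, 30m replicate 2 was more often the highest library (11.1%), and it was highest for 0 of the 21 subsynaptic genes. The genes called by the main test and the counts of the gene lists are therefore given with and without 30m replicate 5. DESeq2, a further test used below, was run only with this library included. The list counts are not given without 30m replicate 2.

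The promoter of Chrne is shown because this gene sets the library apart. It holds the bases CCGGAA, in capitals, the core of the N-box, which ETS factors bind at synaptic promoters. The sequence is the 200 bases before the RefSeq start of the gene, on the reverse strand at chr11:70619245-70619444 (GRCm38.p6), and the match lies 76 to 71 bases before the start. The same letters are present on either strand in 10.69% of 32851 promoter windows of this length.
Chrne: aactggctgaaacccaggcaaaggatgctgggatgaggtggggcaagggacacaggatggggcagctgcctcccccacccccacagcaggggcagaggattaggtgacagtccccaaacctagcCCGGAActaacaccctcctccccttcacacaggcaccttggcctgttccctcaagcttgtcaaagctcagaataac

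Over all genes, few differences between the ages passed the test. Of the 24952 genes in the table, 13990 reached 1 CPM in 8 or more of the 32 libraries and were tested. Of these, 5 rose (Fkbp10, Etv5, Col20a1, Maml1 and Slamf9) and 1 fell (Smox) at 30 months with an adjusted p under 0.05 in the edgeR quasi-likelihood test. These are 0.0357% and 0.00715% of the genes tested, 0.0429% in all. The 5 genes that rose passed the filter on low counts only with the NMJ libraries counted, and the same filter over the 16 xNMJ libraries alone left 11061 genes and none of these 5. Other genes counted below passed the filter in the same way, among them Rrad, Gdf5, Gdnf, Gatm, Jchain, Chrne, Chrnd, Tap1, C1qa, Nid2 and Sat2. Without 30m replicate 5, 3 of 13933 genes (0.0215%) passed, namely Fkbp10 and Maml1 on the higher side (0.0144%) and Smox on the lower (0.00718%). At an unadjusted p under 0.05, 725 genes (5.18%) were higher and 597 (4.27%) lower, 1322 (9.45%) in all, and without that library 683 (4.9%) were higher and 774 (5.56%) lower, 1457 (10.5%) in all. The count also rested on 30m replicate 2, the library with the fewest genes at 1 CPM or more (9699), and was 0 without it, with 1347 genes at an unadjusted p under 0.05. It was 0 as well without 10m replicate 2, 3 or 5, 1 without 10m replicate 4, 2 without 10m replicate 1 and 3 without 10m replicate 6. DESeq2, run on the same counts, called 56 genes higher (0.346%) and 33 lower (0.204%), 89 (0.549%) in all, as shares of 16198 genes. Among the 89 were the 6 genes called by edgeR. No gene was called in the fit of the 16 xNMJ libraries alone. In that fit, 505 of 11061 genes were at an unadjusted p under 0.05, against 1322 of 13990 in the main fit. None was called either with the replicate number as a block (1019 at an unadjusted p under 0.05), in limma voom (824), or in limma on log2(TPM + 1) (890) or log2(TPM + 0.1) (1023). Smox was called in 15 of 27 alternative settings. The other 5 were tested in 25 of these, of which 16 called Fkbp10, 12 Etv5, 10 each Col20a1 and Slamf9, and 9 Maml1.

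Smox encodes spermine oxidase, which converts the polyamine spermine to spermidine and releases hydrogen peroxide. It lies on chromosome 2 at 131491496 to 131525922 on the forward strand. In the 10-month libraries, in replicate order, Smox was at 61.6, 79.7, 74.4, 134, 79.4, 149, 144 and 62.7 CPM. In the 30-month libraries it was at 28.2, 30.2, 46.5, 51.2, 46.4, 23.0, 34.1 and 33.4 CPM. All 8 values at 30 months lay below the lowest at 10 months, and no other tested gene had groups without overlap (1 of 13990 lower, 0.00715%, and 0 higher). Smox was 2.67-fold lower at 30 months by the group means, with a log2 fold change of -1.42 ± 0.26 (SE) and an adjusted p of 0.0309. Without 30m replicate 5 the values were -1.47 and 0.0432. The log2 fold change lay between -1.5 and -1.31 in all 27 alternative settings, but the call was lost in 12 of them, among these each fit without 1 of 10m replicates 2 to 7 or without 30m replicate 2 (adjusted p of 0.0515 to 0.0634) and the fit of the 16 xNMJ libraries alone (0.198).

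**Figure D1:**
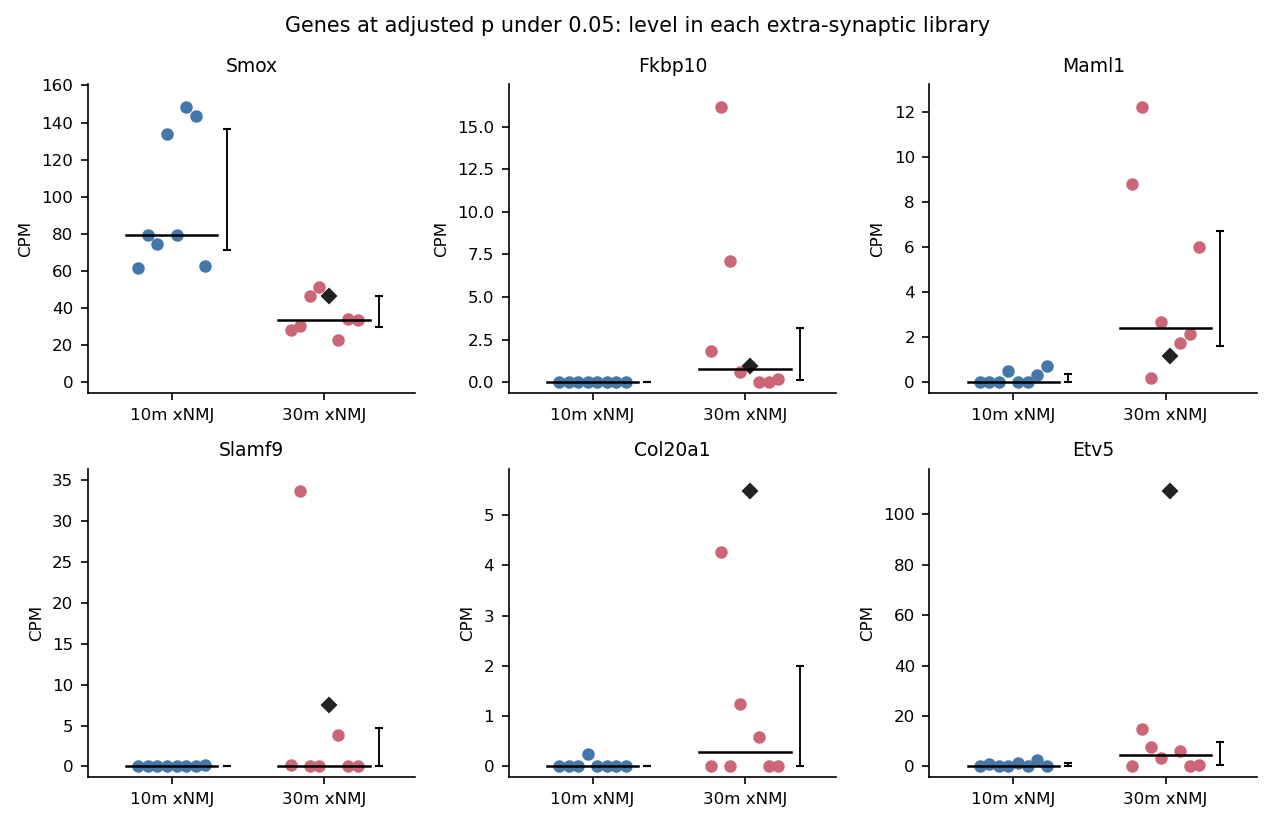
Level in CPM (y axis, linear from 0) in each of the 16 xNMJ libraries of the 6 genes with an adjusted p under 0.05, with 10m xNMJ in blue, 30m xNMJ in red and 30m replicate 5 as a black diamond. Horizontal lines are medians and bars span the quartiles. Smox separated the ages completely, while Fkbp10, Maml1, Slamf9, Col20a1 and Etv5 were at or near 0 at 10 months and spread from 0 or near it upwards at 30 months.

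The 5 genes that rose were scarce in the younger libraries and uneven in the older ones. Fkbp10, an endoplasmic reticulum prolyl isomerase that assists collagen crosslinking, had no count in any 10-month library. At 30 months it was at 1.85, 16.2, 7.11, 0.620, 0.974, 0, 0 and 0.223 CPM, so that 6 of 8 libraries held it, and its mean was at least 5.6-fold higher than a floor of 3 counts per 10-month library. Most of this mean came from 30m replicate 2, and the bound was 2.56-fold without it. Its adjusted p was 0.0309. Fkbp10 (chromosome 11, 100415697 to 100424824, forward strand) overlaps Nt5c3b on the opposite strand, and the reads carry no strand, so that their reads cannot be told apart there; Nt5c3b itself had a log2 fold change of -0.32 ± 0.85 (adjusted p = 0.964).

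Maml1, a coactivator that joins the cleaved Notch receptor on DNA, was above the younger range in more libraries than the other 4. It was at 0, 0, 0, 0.495, 0, 0, 0.346 and 0.713 CPM at 10 months and at 8.84, 12.3, 0.182, 2.68, 1.15, 1.75, 2.16 and 6.02 CPM at 30 months. Thus 7 of the 8 older libraries lay above the highest younger one, and the log2 fold change was 4.25 ± 0.84 (adjusted p = 0.0345). Of the 6 called genes it was called in the fewest alternative settings, with a fold change down to 0.73 on the log2(TPM + 1) scale and an adjusted p of up to 0.510. An antisense gene, Gm26542, overlaps Maml1 (chromosome 11, 50255634 to 50292311, reverse strand).

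Etv5 encodes an ETS factor of the group that acts on synaptic genes downstream of ERK signalling. It was at 0.311, 1.12, 0, 0, 1.46, 0, 2.42 and 0 CPM at 10 months and at 0.206, 14.7, 7.84, 3.30, 109, 6.12, 0.240 and 0.669 CPM at 30 months. The highest value belonged to 30m replicate 5, the library with the synaptic transcripts. Etv5 had a log2 fold change of 4.61 ± 0.87 (adjusted p = 0.0309), which was 2.67 and no longer past the threshold without that library (adjusted p = 0.104). Of the other 7 older libraries, 4 exceeded the highest 10-month value.

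Col20a1, a minor collagen of the fibril-associated kind, and Slamf9, a surface receptor of myeloid cells, rested on few libraries. Col20a1 was at 0 in every 10-month library but replicate 4 (0.247 CPM), and at 0, 4.26, 0, 1.24, 5.49, 0.583, 0 and 0 CPM at 30 months. Its 2 counts at 10 months stood against 94 at 30 months, a ratio of 46.9 with a 95% counting interval of 12.6 to 393. The highest value was that of 30m replicate 5, without which the log2 fold change of Col20a1 was 4.01 instead of 4.80. Slamf9 had 1 count at 10 months and 289 at 30 months, a ratio of 288 with an interval of 51.3 to 11419. Most of the latter lay in 30m replicate 2 (33.8 CPM), with 7.52 CPM in replicate 5, 3.79 CPM in replicate 6, 0.206 CPM in replicate 1 and 0 in the other libraries. Both had an adjusted p of 0.0345, and both missed the threshold without 30m replicate 5 (adjusted p of 0.104 for Col20a1, and just above 0.05 for Slamf9). A noncoding gene overlaps Col20a1 on the same strand. The intervals cover counting error only, since reads were not tagged by molecule.

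**Figure D2:**
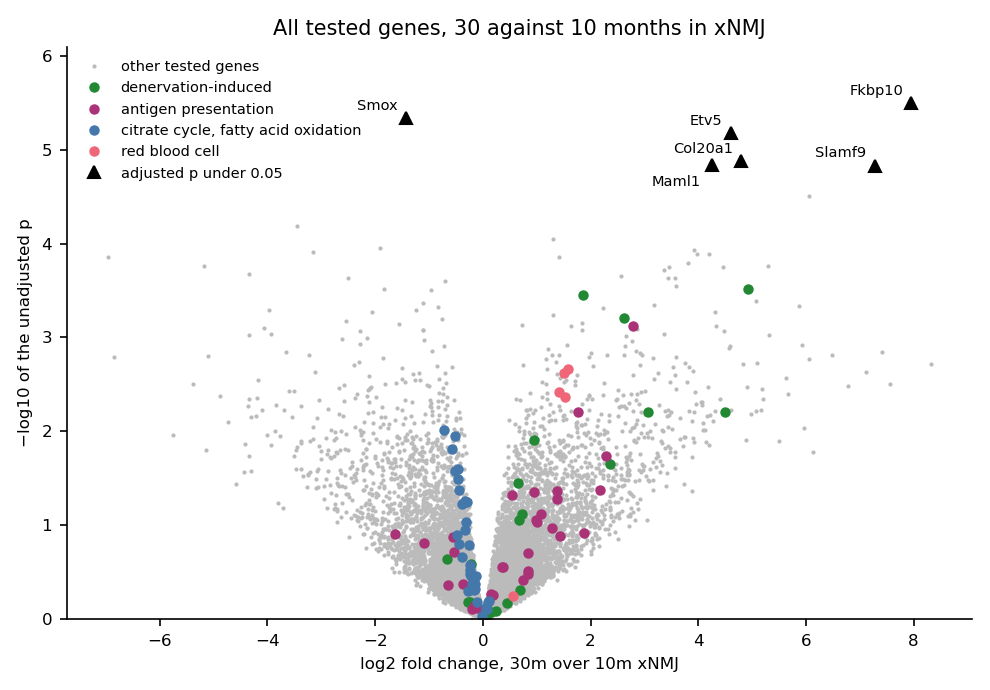
Log2 fold change of 30m over 10m xNMJ (x axis) against the −log10 of the unadjusted p (y axis) for the 13990 genes tested, with the 6 genes past the adjusted threshold as labelled triangles and members of 4 lists in colour. Citrate cycle and fatty acid oxidation genes lie mostly left of 0 at small fold changes, denervation-induced and red blood cell genes mostly right of 0.

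Among the genes averaging 10 CPM or more over the 16 libraries, the 8 higher and the 8 lower ones with the smallest p-values were singled out. All of them but Smox missed the adjusted threshold in edgeR, and DESeq2 called each of the 16. Ube2e3, a ubiquitin-conjugating enzyme, had a median of 39.9 CPM at 30 months (31.7 to 109) and of 22.1 CPM at 10 months (11.9 to 37.6), with an adjusted p of 0.118. Gstm2, a glutathione transferase, had medians of 61.8 and 19.8 CPM, and 5 of its 8 values at 30 months exceeded the highest at 10 months. Tsn, the RNA-binding protein translin, had medians of 142 and 81.0 CPM. The remaining genes on the higher side were Napb, Rngtt, Rnf185, the noncoding Gt(ROSA)26Sor, which overlaps Thumpd3 on the opposite strand, and Lyz2, the lysozyme of macrophages, whose log2 fold change of 2.57 was 1.34 without 30m replicate 5.

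On the lower side, Tardbp, the RNA-binding protein TDP-43, had a median of 58.0 CPM at 30 months (45.3 to 80.1) and of 86.8 CPM at 10 months (66.9 to 146). Its log2 fold change was -0.71 ± 0.17 (adjusted p = 0.127), and 7 of 8 older libraries lay below the lowest younger one. Commd9, an endosomal sorting subunit, had medians of 9.06 and 29.1 CPM, with 5 of 8 libraries below the younger range. Popdc2, a cAMP-binding membrane protein of striated muscle, had medians of 20.9 and 38.2 CPM, and overlaps Gm21987 on the same strand, so that reads can be shared between them. Pds5b, a cohesin regulator, Larp1b, an RNA-binding protein, and the noncoding 2900076A07Rik had log2 fold changes of -1.12, -0.82 and -0.77. Masp2 overlaps Tardbp on the opposite strand with at most 0.446 CPM in any library.

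Amd1, which makes the decarboxylated S-adenosylmethionine that spermidine and spermine synthesis consume, was also on the lower side. It was at 570, 779, 811, 1154, 784, 986, 1335 and 847 CPM at 10 months and at 747, 396, 708, 509, 445, 323, 202 and 414 CPM at 30 months. The groups overlapped only through the 10-month value of 570 CPM and the 30-month values of 747 and 708 CPM, and 6 of 8 older libraries lay below the younger range. The log2 fold change was -0.96 ± 0.24, with an adjusted p of 0.137 in edgeR and 0.0243 in DESeq2. Of the 18 tested genes of polyamine metabolism, 3 were lower at an unadjusted p under 0.05 (16.7%, against 4.27% of all genes), namely Smox, Amd1 and Sat2, a relative of spermidine acetyltransferase, and 0 were higher. The median log2 fold change of the list was 0.05, next to 0.04 for all genes. With 30m replicate 5 left out, 2 were lower (Smox and Amd1, against 5.56% of all genes), 0 higher and the median was -0.10. Odc1, the enzyme that opens the pathway, had medians of 43.3 CPM at 30 months and 49.8 CPM at 10 months (adjusted p = 0.924).

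Genes that fibres transcribe when they lose their nerve stood higher in several older libraries. None passed the adjusted threshold in edgeR, while DESeq2 called Rrad and Eda2r (adjusted p = 0.0123 each) and Runx1 (adjusted p = 0.0167) on the higher side. Of the 22 members of the denervation list, 19 were tested, and Myh3 and Sox11 were among those not analysed here. Of the 19, 8 were higher at an unadjusted p under 0.05 (42.1%, against 5.18% of all genes) and 0 lower, with a median log2 fold change of 0.66. Among these 8, Rrad, Gdf5 and Gdnf passed the filter on low counts only with the NMJ libraries counted. With 30m replicate 5 left out, 7 were higher (4.9% of all genes), 0 lower, and the median was 0.47. Runx1, a transcription factor that protects denervated fibres from wasting, was at 1.24, 0.672, 2.84, 2.47, 0.183, 0.695, 1.15 and 3.74 CPM at 10 months. At 30 months it was at 28.0, 0.889, 17.3, 0.620, 4.96, 11.7, 14.4 and 3.57 CPM. In 5 of 8 older libraries it exceeded every younger one, and in replicates 2, 4 and 8 it lay within the younger range (log2 fold change 2.62 ± 0.70, edgeR adjusted p = 0.195, and 2.73 without 30m replicate 5).

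Eda2r, a receptor of the TNF receptor family, was more even. Its values were 2.49, 2.46, 5.91, 2.10, 7.14, 1.39, 3.81 and 7.13 CPM at 10 months and 14.8, 2.49, 46.8, 8.88, 15.2, 9.62, 9.37 and 11.6 CPM at 30 months. All older libraries but replicate 2 lay above the younger range (log2 fold change 1.87 ± 0.47, edgeR adjusted p = 0.149, and 1.86 without 30m replicate 5). Sln, the sarcolipin that restrains the calcium pump of the sarcoplasmic reticulum, was at or below 2.18 CPM in 7 of the 8 younger libraries and at 19.1 CPM in the other. In the older libraries it was at 55.7, 30.0, 24.8, 3.10, 29.3, 2.33, 35.6 and 1.34 CPM, with a log2 fold change of 3.06 ± 1.05 and an edgeR adjusted p of 0.329 (3.00 without 30m replicate 5). The younger library at 19.1 CPM was replicate 8, without which Sln passed the threshold at a log2 fold change of 6.35 (adjusted p = 0.0293). Rrad, a small GTPase that inhibits calcium channels, lay above the highest younger value in 3 older libraries and reached 49.7 CPM.

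The other members of this list were less uniform. Gadd45a, a stress protein, and Hdac4, the deacetylase that couples denervation to gene expression, had log2 fold changes of 0.96 and 0.65, and Gdf5, a BMP ligand, and Gdnf, a neurotrophic factor, rested on 29 counts each at 30 months against 1 and 3 at 10 months. Gdf5 was above its 10-month maximum in 1 library only. Chrng, the γ subunit of the embryonic acetylcholine receptor, was near its floor in both groups, with at most 1.78 CPM and a log2 fold change of 0.24 ± 1.05 (adjusted p = 0.980). Myh8, the perinatal myosin, had medians of 212 CPM at 30 months and 254 CPM at 10 months (adjusted p = 0.821).

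**Figure D3:**
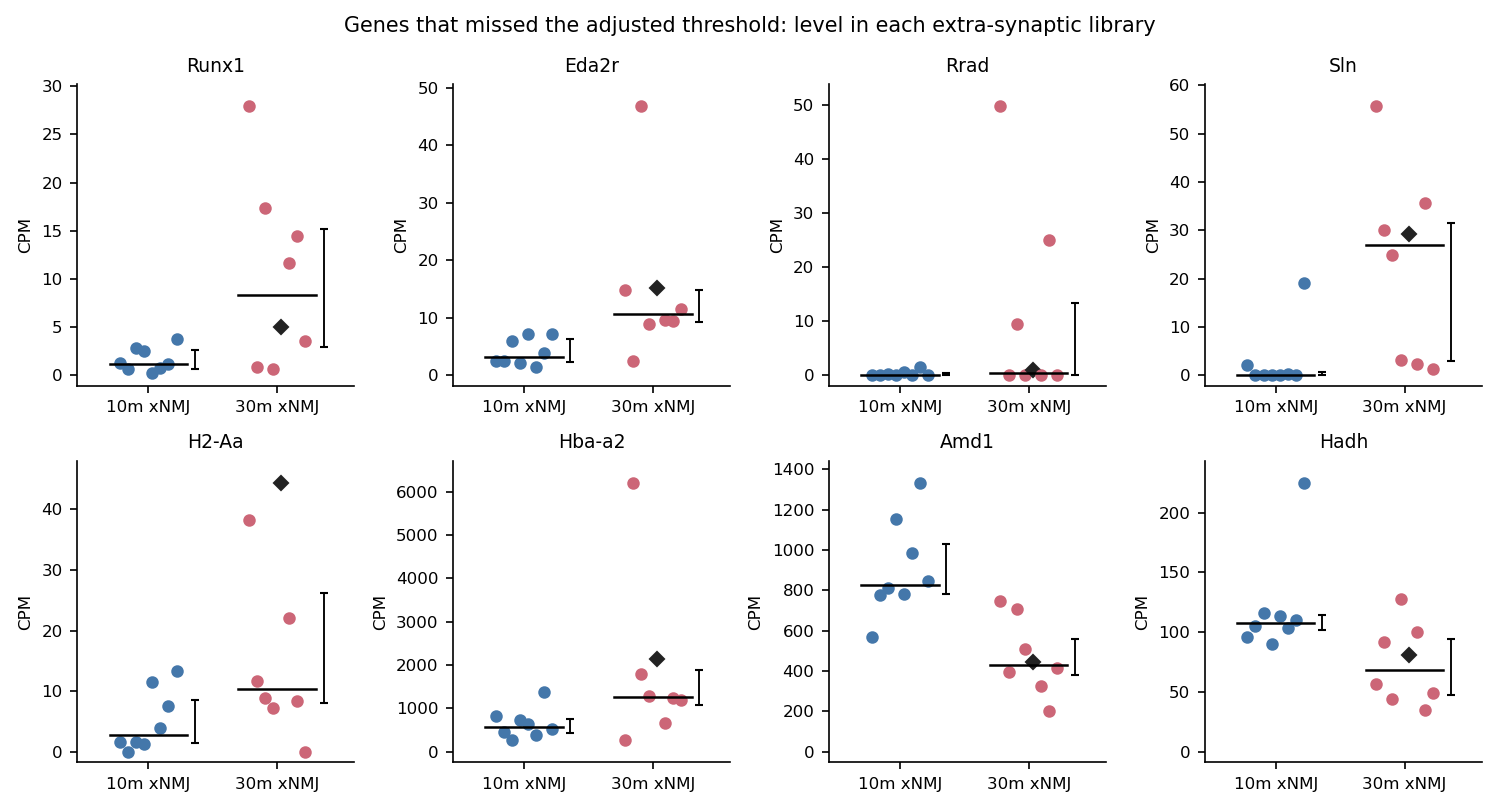
Level in CPM (y axis, linear) in each xNMJ library of 8 genes that missed the adjusted threshold, with 10m xNMJ in blue, 30m xNMJ in red, 30m replicate 5 as a black diamond, medians as lines and quartiles as bars. Runx1, Eda2r, Sln and H2-Aa spread over a wider range at 30 months, and Amd1 and Hadh lie lower with overlap.

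Synaptic genes themselves followed the one library. Of 21 tested, 4 were higher and 1 lower at an unadjusted p under 0.05 (5.18% and 4.27% of all genes), with a median log2 fold change of 0.45. The counts were 2 and 5 without 30m replicate 5 (4.9% and 5.56% of all genes), and the median 0.02. Beside Etv5, DESeq2 called Chrne (adjusted p = 0.0247) and Chrnd, the δ subunit (adjusted p = 0.0487), on the higher side, and edgeR neither. Chrne had a log2 fold change of 5.29 with the library and of -2.85 without it. Chrnb1, the β subunit that every form of the receptor contains, kept its value, 1.12 and 1.11, with a median of 19.3 CPM at 30 months against 9.61 CPM at 10 months (adjusted p = 0.337). Chrna1, the α subunit, went from 0.66 to -0.26 without the library.

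Antigen presentation and interferon-response genes had a median log2 fold change of 0.84 over the 31 of 32 members that passed the filter (Nlrc5 did not), 0.56 without 30m replicate 5. At an unadjusted p under 0.05, 7 were higher (22.6%, against 5.18% of all genes) and 0 lower. The counts were 4 and 0 without that library, where 4.9% of all genes were higher. None passed the adjusted threshold in edgeR or DESeq2. H2-Aa, the α chain of an MHC class II molecule, was at 1.56, 0, 1.65, 1.24, 11.5, 3.94, 7.50 and 13.4 CPM at 10 months. At 30 months it was at 38.2, 11.7, 8.93, 7.23, 44.4, 22.1, 8.41 and 0 CPM, so that 3 older libraries exceeded the younger range. Its log2 fold change was 1.77 ± 0.61, and 1.41 without 30m replicate 5 (adjusted p = 0.329 with it). Cd74, the invariant chain that escorts class II molecules, reached 104 CPM in 30m replicate 5 and had a log2 fold change of 2.79 with that library and 0.97 without. The class II chains H2-Ab1 and H2-Eb1 had 0.84 and 1.28, neither at an unadjusted p under 0.05, and H2-Ab1 changed sign in 4 of 27 alternative settings. Of the 31 genes, 9 had a log2 fold change below 0, as did 46.8% of all genes. Without 30m replicate 5, 11 did, as did 48.1% of all genes. H2-D1, a class I chain present on most cells, had medians of 64.6 and 49.5 CPM, and B2m, its light chain, of 116 and 92.2 CPM (adjusted p = 0.941). The interferon-response genes Gbp2, Tap1, Ifit1 and Stat2 had log2 fold changes of 2.30, 2.17, 1.37 and 0.95, and without 30m replicate 5 Gbp2 had 1.86 and Tap1 2.37.

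The promoter of H2-Aa is shown as that of a class II gene, a class that shares an X box and a Y box under one coactivator. The capitals mark TGACGTCA, the letters of a cAMP-response element within the X box region, and ATTGG, the Y box core, 74 to 67 and 48 to 44 bases before the RefSeq start. The sequence is the 200 bases before that start, on the reverse strand at chr17:34287874-34288073 (GRCm38.p6). On either strand TGACGTCA is present in 1.47% and ATTGG in 29.35% of the 32851 promoter windows, and the matches are a description of the letters only.
H2-Aa: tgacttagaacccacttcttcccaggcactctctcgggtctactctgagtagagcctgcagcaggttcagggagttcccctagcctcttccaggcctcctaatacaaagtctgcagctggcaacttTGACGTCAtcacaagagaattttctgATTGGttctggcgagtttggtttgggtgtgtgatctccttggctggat

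Macrophage markers stood highest in a pair of older libraries. They summed to 17.7, 5.60, 35.4, 19.2, 31.9, 49.5, 54.0 and 10.5 CPM at 10 months and to 9.04, 102, 44.1, 33.9, 121, 21.0, 15.4 and 19.4 CPM at 30 months. The 2 highest sums belonged to 30m replicates 2 and 5, which are the highest libraries for Slamf9 and for the summed antigen presentation list (939 and 1198 CPM, next to at most 668 CPM in the other 14). Of the 10 markers, 2 were higher at an unadjusted p under 0.05 (Lyz2 and C1qa) and 2 lower (C1qc and Adgre1), next to 5.18% and 4.27% of all genes. The counts were again 2 and 2 without 30m replicate 5 (4.9% and 5.56% of all genes). Adgre1, the F4/80 antigen that defines mouse tissue macrophages, had no count in any 30-month library, and at 10 months was at 0 in 4 libraries and at up to 6.38 CPM in the others (edgeR adjusted p = 0.118, DESeq2 adjusted p = 0.00132). Lyz2, the most abundant marker, was at 103 CPM in 30m replicate 5 and at 5.69 CPM in 30m replicate 2. The part of macrophages in the results on antigen presentation and Slamf9 was not tested, and in pooled regions fewer cells of a type and less RNA per cell cannot be told apart.

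Red blood cell transcripts had the highest median of all lists. The summed level was 2578, 1387, 769, 2365, 2020, 1288, 4382 and 1442 CPM at 10 months and 765, 19391, 5467, 4067, 6916, 1907, 3730 and 3643 CPM at 30 months. The most abundant member, Hba-a2, an α globin, had a median of 1253 CPM at 30 months and 579 CPM at 10 months, and 3 older libraries exceeded the younger range. At an unadjusted p under 0.05, 4 of 5 members were higher (5.18% of all genes), the 4 globins, at log2 fold changes of 1.42 to 1.58 and adjusted p-values of 0.264 to 0.316, while Alas2, the heme synthesis enzyme of red cell precursors, had 0.56 (adjusted p = 0.945). The median of the list was 1.51, and 1.44 without 30m replicate 5, where again 4 were higher (4.9% of all genes). It lay between 0.79 and 1.76 in 27 alternative settings. The highest sum, 19391 CPM, was that of 30m replicate 2 alone. The α globins, and likewise the β globins, are near-identical copies whose reads can be shared between them, so that the 4 values are not separate measurements.

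**Figure D4:**
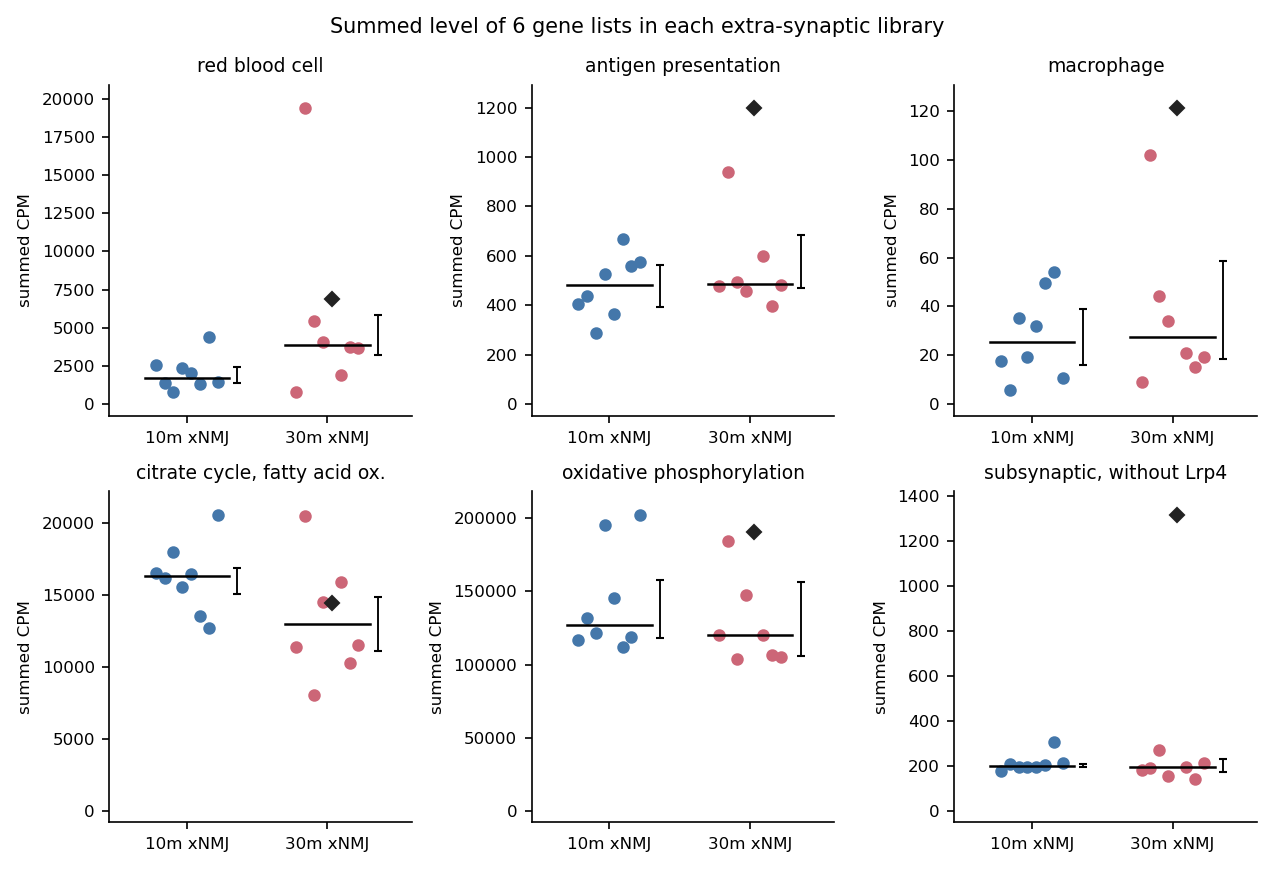
Summed CPM (y axis, linear from 0) of 6 gene lists in each xNMJ library, with 10m xNMJ in blue, 30m xNMJ in red, 30m replicate 5 as a black diamond, medians as lines and quartiles as bars. Antigen presentation and macrophage sums are highest in 30m replicates 5 and 2, the red blood cell sum in 30m replicate 2, and the subsynaptic sum without Lrp4 stands apart only in 30m replicate 5.

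Genes that oxidise fuel in mitochondria leaned lower at 30 months by small amounts, and none passed the adjusted threshold in edgeR or DESeq2. Of 37 tested genes of the citrate cycle and fatty acid oxidation, 7 were lower at an unadjusted p under 0.05 (18.9%, against 4.27% of all genes) and 0 higher, 32 had a log2 fold change below 0, and the median was -0.23. The number below 0 was again 32 without 30m replicate 5, and 6 were then lower at an unadjusted p under 0.05 (5.56% of all genes). Hadh, the hydroxyacyl-CoA dehydrogenase of fatty acid oxidation, had a median of 68.7 CPM at 30 months (34.8 to 128) and 108 CPM at 10 months (89.9 to 225), and 5 of 8 older libraries lay below the younger range (log2 fold change -0.72 ± 0.26, adjusted p = 0.369). Pdhb, a subunit of pyruvate dehydrogenase, had medians of 324 and 451 CPM, and Etfdh, which passes electrons from fatty acid oxidation to ubiquinone, of 152 and 202 CPM. Acadvl, Lpl, Eci1 and Acaa2, which release or break down fatty acids, had log2 fold changes of -0.47, -0.52, -0.47 and -0.45. The summed level of the list was 16189 ± 2460 CPM at 10 months and 13317 ± 3885 CPM at 30 months (SD, n = 8 each), and 4 older libraries lay below the younger range.

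Genes of the respiratory chain also lay mostly below 0. Of 75 nuclear-encoded oxidative phosphorylation genes, 59 had a log2 fold change below 0, as did 46.8% of all genes. Without 30m replicate 5, 72 did, as did 48.1% of all genes. Their median was -0.09, next to -0.23 for the citrate cycle and fatty acid oxidation, and without that library the medians were -0.22 and -0.27. Of the 75, 3 members were lower at an unadjusted p under 0.05 (4%, near the 4.27% of all genes), among them Ndufv1 of complex I and Cyc1 of complex III. Ndufv1 had medians of 286 and 446 CPM, with 7 of 8 older libraries below the younger range and 1 above it (log2 fold change -0.49 ± 0.17, adjusted p = 0.342). Glycolysis and glycogen genes had a median of -0.12, with 3 of 29 lower (10.3%) and 0 higher: Ugp2, which makes UDP-glucose, Pfkm, the muscle phosphofructokinase, and Slc16a3, the lactate exporter. Of the 25 PPAR pathway genes only Esrra, the estrogen-related receptor that drives mitochondrial genes, reached an unadjusted p under 0.05, at -0.49. Among 18 creatine and purine genes, Gatm, the first enzyme of creatine synthesis, and Ampd3, an AMP deaminase of low level in muscle, had log2 fold changes of 3.58 and 1.76, and Ampd1, the muscle AMP deaminase, and Nmnat1, an NAD synthesis enzyme, of -0.42 and -0.43, which makes 11.1% in each direction (5.18% higher and 4.27% lower over all genes). Gatm was at most at 0.713 CPM at 10 months and at 5.05 CPM at 30 months, and DESeq2 called it higher (adjusted p = 0.0123). With 30m replicate 5 left out, 2 oxidative phosphorylation, 3 glycolysis, 0 PPAR and 3 creatine and purine genes were lower, and 2 of the last list higher. Over all genes, 5.56% were then lower and 4.9% higher.

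Collagens and other matrix proteins are made mostly by the connective tissue cells between fibres. Of 40 tested, 2 were higher (Col20a1 and Nid2, a basement membrane nidogen) and 3 lower (Col1a2, Col15a1 and Col18a1) at an unadjusted p under 0.05 (5.18% and 4.27% of all genes). Of the 40, 24 had a log2 fold change below 0, as did 46.8% of all genes, and the median was -0.24. Leaving out 30m replicate 5 gave counts of 1 and 7 (4.9% and 5.56% of all genes) and a median of -0.43. Col1a2, a chain of the main fibrillar collagen, had medians of 16.7 CPM at 30 months and 25.1 CPM at 10 months (adjusted p = 0.292), while its partner Col1a1 had 14.5 and 18.6 CPM (adjusted p = 0.949). Col15a1 and Col18a1, basement membrane collagens of vessels and fibres, had log2 fold changes of -2.10 and -1.5, or -2.76 and -2.0 without 30m replicate 5. Among 23 genes that fold and crosslink collagen, Fkbp10, P3h1 and Colgalt1 were higher and Pcolce and P4ha2 lower at an unadjusted p under 0.05, with a median of 0.09, and 2 were higher and 1 lower without 30m replicate 5.

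Genes of contraction, calcium handling and excitability were counted at an unadjusted p under 0.05 against 5.18% higher and 4.27% lower over all genes, and 4.9% and 5.56% without 30m replicate 5. Of 18 fast fibre genes, only Ampd1, of 30 sarcomere genes, only Synm, an intermediate filament protein, and of 25 calcium handling genes, only Asph, whose products include junctin, reached an unadjusted p under 0.05, all 3 on the lower side (5.56%, 3.33% and 4%). Myh4, the myosin of type IIB fibres, had medians of 18238 CPM at 30 months and 18891 CPM at 10 months (log2 fold change -0.25 ± 0.21, adjusted p = 0.816). Myh1, of type IIX fibres, had a log2 fold change of -0.18 ± 0.27 (adjusted p = 0.932). Sln was the only one of 13 slow fibre genes at an unadjusted p under 0.05, with and without 30m replicate 5. Of 18 channel genes, Scn4a, the muscle sodium channel, had a log2 fold change of -0.54 ± 0.23 and Kcnj11, the pore of the ATP-sensitive potassium channel, of 3.92, the latter from at most 14.9 CPM. Kcnj11 failed the filter on low counts without 30m replicate 5, which left 0 channel genes higher and 1 lower. The lower counts were then 2 for fast fibre, 1 for sarcomere and 2 for calcium handling genes.

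**Figure D5:**
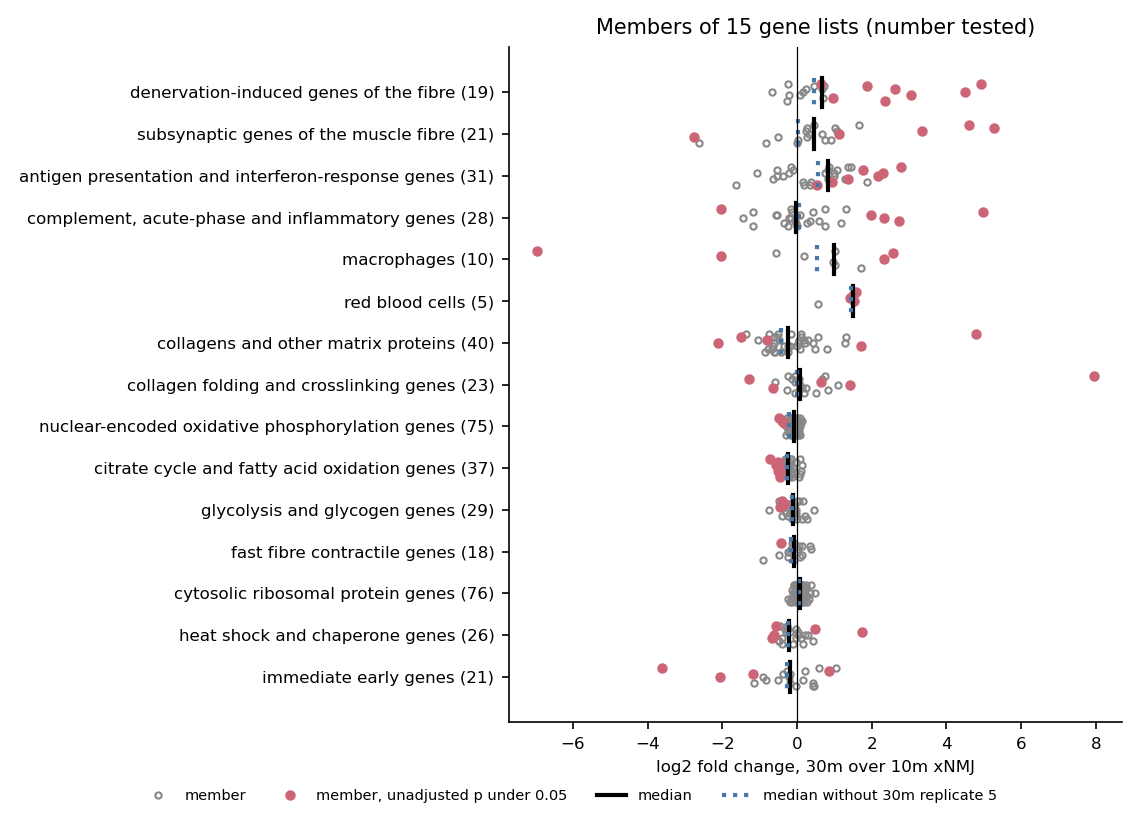
Log2 fold change of 30m over 10m xNMJ (x axis) of every tested member of 15 gene lists (y axis, number tested in brackets), filled in red where the unadjusted p is under 0.05, with the list median as a black line and the median without 30m replicate 5 as a dotted line. The median is 1.51 for red blood cells, 0.66 for denervation-induced genes and -0.23 for the citrate cycle and fatty acid oxidation, and the dotted line of the subsynaptic list is near 0.

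Protein synthesis and breakdown genes were set against the same shares of all genes (5.18% higher and 4.27% lower, and 4.9% and 5.56% without 30m replicate 5). None of 76 cytosolic ribosomal protein genes and none of 36 splicing genes reached an unadjusted p under 0.05 in either direction. Of 35 proteasome genes, Psma7, a core subunit, was higher (medians of 315 and 202 CPM), and of 40 autophagy and lysosome genes, Map1lc3a, a coat protein of autophagosomes, Atg3, the enzyme that attaches it to lipid, and Ctsl, a lysosomal protease, were higher, with log2 fold changes of 0.47, 0.63, 1.19 and 0.55. The 3 autophagy and lysosome genes were 7.5% of their list. Of 33 mTORC1 genes, Fnip1, a folliculin partner, and Mlst8, a subunit of the complex, were lower, at -0.68 and -1.73. Among 21 atrophy genes, Ube4b was higher and Asb2 and Stub1, ubiquitin ligase components, lower (9.52%), and Fbxo32, the ligase atrogin-1, had medians of 305 and 361 CPM (adjusted p = 0.658). All of these genes missed the adjusted threshold in edgeR and in DESeq2. Without 30m replicate 5, 2 mTORC1 genes were higher and 2 lower, 2 ribosomal protein genes were higher, 1 splicing gene was higher and 1 lower, and the counts were 2 and 2 for the proteasome, 2 and 1 for autophagy and lysosome genes and 1 and 0 for atrophy genes.

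Of 21 p53 targets, Eda2r was higher and Aen, Rrm2b and Polk lower (14.3%, against 4.27% of all genes) at an unadjusted p under 0.05, and Cdkn1a, the cell cycle inhibitor p21, had a log2 fold change of -0.23 ± 0.53 (adjusted p = 0.955). Among 26 heat shock and chaperone genes, Hspa2 and Dnajb6 were higher and Hspd1, Hsph1 and Stip1 lower, 19.2% of the list in all against 9.45% of all genes. Hspd1, the mitochondrial chaperonin, had medians of 135 CPM at 30 months and 189 CPM at 10 months, with 7 of 8 older libraries below the younger range (log2 fold change -0.57 ± 0.17, adjusted p = 0.258). Of 28 genes of the unfolded protein and integrated stress responses, Dnajb9 and Atf4 were lower, at -0.66 and -0.44, and Hspa5, the chaperone BiP, stood at a median of 147 CPM against 148 CPM. Cat, the peroxidase catalase, was the 1 of 29 antioxidant genes at an unadjusted p under 0.05, at -0.76. Leaving out 30m replicate 5 gave 1 higher and 3 lower p53 targets, 2 and 2 heat shock genes, 0 and 3 genes of the unfolded protein and integrated stress responses, and 0 and 2 antioxidant genes, with 4.9% of all genes higher and 5.56% lower.

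Markers of other cell types between the fibres were counted against 5.18% higher and 4.27% lower over all genes (4.9% and 5.56% without 30m replicate 5). Endothelial markers summed to 234 ± 67.6 CPM at 10 months and 232 ± 41.9 CPM at 30 months, and only Kdr, a VEGF receptor, of the 9 tested (11.1%) reached an unadjusted p under 0.05, at -0.77 ± 0.34. None of the 8 pericyte and smooth muscle, 8 fibro-adipogenic, 6 muscle stem cell, 9 neutrophil and mast cell or 3 tendon cell markers did. Of 8 Schwann cell markers, Cnp and Cdh19 were higher (25%), and Cdh19 changed sign without 30m replicate 5 (3.00 and -0.84). That left 1 Schwann cell marker higher and 1 lower, 1 pericyte and smooth muscle marker lower, and 0 in the other lists of this paragraph but the endothelial one (1 lower) and that of lymphocytes, which holds Jchain (1 higher), and of adipocytes (1 higher). Jchain, of antibody-secreting cells, had a log2 fold change of 4.06 ± 1.35 and at most 1.10 CPM at 10 months against up to 23.0 CPM at 30 months (DESeq2 adjusted p = 0.0490). Only 3 of the 10 lymphocyte markers were tested, 2 of them above 0 and 1 below, and Jchain alone reached an unadjusted p under 0.05. Cd3d, the most abundant, had a log2 fold change of -0.35. Cfd, the adipocyte protease adipsin, reached 84.3 CPM in 1 older library with a median of 0 in both groups. With 30m replicate 5 included, 1 of 4 adipocyte markers tested was higher at an unadjusted p under 0.05.

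Whether an age effect differed between the regions was tested as an interaction over all 32 libraries, taken as independent. The labels do not say whether NMJ and xNMJ libraries of one age and number came from one mouse, and 30m replicate 5 of the NMJ regions had an insert size of 129 bases, near the 130 bases of its xNMJ counterpart. No gene passed at an adjusted p under 0.05 in edgeR, with 708 genes (5.06%) at an unadjusted p under 0.05. DESeq2 called 15 of 13395 genes (0.112%). With age and replicate number as a block, 0 genes passed and 555 reached an unadjusted p under 0.05. For age within the NMJ regions, taken from the main edgeR fit of all 32 libraries, 0 genes passed the adjusted threshold and 372 (2.66%) the unadjusted one. The xNMJ share of 9.45% comes from that fit too, and whether the regions differ in spread was not tested. Smox had a log2 fold change of -0.42 in the NMJ regions, and the difference from the xNMJ regions gave an adjusted p of 0.808. Amd1 had -0.78 in the NMJ regions, with a difference between regions of -0.18. Etv5 stood at 374 ± 93.0 CPM in the NMJ regions at 10 months and 384 ± 49.6 CPM at 30 months, and Col20a1 at 64.3 ± 16.6 and 56.0 ± 13.1 CPM, while in the xNMJ libraries Etv5 reached 109 CPM in 30m replicate 5 and at most 14.7 CPM in the others, and Col20a1 at most 5.49 CPM. Sln had a log2 fold change of 3.17 in the NMJ regions and Eda2r of 1.01, and none of these 4 genes passed the adjusted threshold there.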

How the data were processed

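Laser-captured RNA had been amplified with the SMART-Seq v4 kit and sequenced without strand. The submitters' processing notes name cutadapt 1.9.1, kallisto 0.43.1 and GRCm38. Per the study's methods, the authors summed pseudoalignments to protein-coding transcripts into counts per gene, with a read on several transcripts shared among them. Yet 1458 of the genes tested are not protein-coding in GENCODE M21. The TPM values, which the authors scaled for transcript length, served to describe levels per length. They were also the input of some alternative limma fits for age, while the main test used counts.

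Counts were tested with edgeR 4.0.16 in R 4.3.3 (TMM factors, quasi-likelihood F test over 4 groups, at least 1 CPM in at least 8 libraries), two-sided, with Benjamini-Hochberg adjustment over all genes. CPM used TMM-scaled totals, and SE is the log2 fold change over the square root of F. The fit was tested on simulated data. Alternatives used DESeq2 1.42.0 and limma 3.58.1. Samples and the 45 gene lists were chosen with earlier results of these data known, so lists are described by counts and medians beside those of all genes. Genes were named by rule: all called genes, the 8 higher and 8 lower abundant genes with the smallest p, and in each list the first tested member and up to 3 with the smallest p, or the most abundant cell marker. Other genes were named after their values were seen, and a few are not reported here. Gene positions are from GENCODE M21 and promoters from RefSeq.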

Additional observations from a re-analysis of the deposited data

Results flagged for a closer look

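In groups of 8 libraries, a value was singled out where its gap to the nearest other, as a share of the group's range, exceeded Dixon's critical value for 8 values. Of 114 groups examined, 9 had such a value, 4 of them in 30m xNMJ replicate 5. Chance gives about 1 in 20, but the count cannot be set against that rate. This library was known beforehand to carry synaptic transcripts, the measures overlap, and some gaps are 1 by construction. In that library, the total of 13182475 counts had a gap of 0.650, the subsynaptic list without Lrp4 (1318 CPM) one of 0.891, the mean log2 CPM of the whole subsynaptic list (4.15, group median 1.96) one of 0.573, and that of antioxidant genes (6.18, median 5.60) one of 0.530. In 30m replicate 2, the mean log2 CPM was the lowest of its group for polyamine genes (3.15, median 3.96, gap 0.533) and Notch genes (1.65, median 2.22, gap 0.611). In 10m replicate 7, the subsynaptic list without Lrp4 was the highest of its group at 308 CPM (gap 0.732). Slamf9 in 10m replicate 8 and Col20a1 in 10m replicate 4 each had the only counts of their group, so that the gap was 1 by construction.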

How the results depend on the processing

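The count of 6 genes called for age depended on the fit. Leaving out 1 library in turn gave 0 to 7 calls (0 to 6 higher, 0 to 2 lower), with 0 without 10m replicates 2, 3 or 5 or 30m replicate 2 (1230 to 1347 genes at an unadjusted p under 0.05), 1 without 10m replicate 4 (Gstm2), 2 without 10m replicate 1 and 3 without 10m replicate 6. DESeq2 called 89 (56 higher, 33 lower). A mean of at least 10 CPM, under which the 5 higher genes were not tested, left 1 (0 higher, 1 lower) and insert size as a covariate 2 (1 and 1). No gene was called with the 16 xNMJ libraries alone (505 of 11061 genes at an unadjusted p under 0.05), where those 5 were not tested either. None was called with the replicate number as a block (1019), limma voom with quality weights (824), or limma on log2(TPM + 1) (890) or log2(TPM + 0.1) (1023). DESeq2 size factors and a robust fit gave 6 and no filter 5. Chosen after seeing the data, the 15 xNMJ libraries without 30m replicate 5 gave 0 calls (564). The replicate numbers did not pair the ages: 0 of 8 same-numbered pairs correlated over 0.1 (mean r -0.0046), so across ages the blocked libraries share only a number. Between regions of one age, same-numbered libraries had a mean r of 0.0893 at 10 months (4 of 8 over 0.1) and 0.0807 at 30 months (1 of 8), against -0.0128 and -0.0110 for other numbers, short of every pair over 0.1. The interaction gave 0 calls, also with the block, 0 to 1 on leaving out a library and 15 by DESeq2. Without 30m replicate 5, the age difference was -626407 total counts, -0.0689 percentage points in the share of the top 10 genes and -19.2 CPM for the subsynaptic list without Lrp4. Of 173 named genes, 30 did not keep their sign in every setting, Chrna1, Nes, Prkar1a and H2-Ab1 among them. Of those at an unadjusted p under 0.05, log2 fold changes turned for Chrne (-2.85 without 30m replicate 5, -0.069 in voom, up to 6.31 on leaving out another library), Cdh19 (-0.84, -0.022 and up to 3.96), Dusp6 (-0.10 without 30m replicate 5, up to 1.92) and Igf1 (0.14 in voom). Of 117 named genes at an unadjusted p under 0.05, 113 kept their sign in every setting. The cause of these shifts was not tested. Depth limits the genes at or under 0.933 CPM.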

Other observations

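Of signalling genes not described above, none but Maml1 and Etv5 passed the adjusted threshold in edgeR or DESeq2. The counts below are at an unadjusted p under 0.05, where 5.18% of all genes were higher and 4.27% lower, and 4.9% and 5.56% without 30m replicate 5. Among 21 immediate early genes, 1 was higher and 3 lower (14.3%), with and without 30m replicate 5. Klf6 had medians of 24.7 CPM at 30 months and 12.1 CPM at 10 months, while Nr4a1, an orphan nuclear receptor induced by exercise, had 17.8 and 28.1 CPM (log2 fold change -1.18 ± 0.47) and Maff and Nr4a2 had log2 fold changes of -3.61 and -2.06 from at most 1.17 and 1.06 CPM at 30 months. Fos, the prototype of these genes, had medians of 15.6 and 15.9 CPM (adjusted p = 0.971). Of 29 Notch pathway genes, Maml3 and the target Hey1 were higher beside Maml1 at an unadjusted p under 0.05, with log2 fold changes of 2.02 and 2.71 (3 in all, 10.3%), and 0 were lower. The counts were 2 and 0 with 30m replicate 5 left out.

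Among 27 growth factors and other proteins secreted by muscle, Vegfa, the angiogenic factor, had medians of 124 CPM at 30 months and 183 CPM at 10 months (log2 fold change -0.67 ± 0.23, adjusted p = 0.331) and Igf1 had -1.32 ± 0.57. The list had 1 gene higher and 2 lower, or 0 and 3 without 30m replicate 5. Mstn, which limits muscle growth, had medians of 21.4 and 11.2 CPM with overlapping ranges (adjusted p = 0.876). Of 22 ERK and ETS genes, 3 were higher (13.6%) and 2 lower (9.09%), or 2 and 3 without that library. Dusp7, an ERK phosphatase, had a log2 fold change of 0.88 and Elk1 of -2.11, while Dusp6 had 1.67 with 30m replicate 5 and -0.10 without it. Of 21 clock genes, only Csnk1d, a kinase of the PER proteins, reached an unadjusted p under 0.05, at -0.69 (2 genes lower without that library), and Arntl had medians of 2.72 and 7.02 CPM (adjusted p = 0.919). Among 28 complement and inflammatory genes, Cfd, C1qa and Ccl8 were among the higher ones and C1qc was lower, with a list median of -0.02 and counts of 4 (14.3%) and 1, or 3 and 2 without that library, and among 12 senescence genes, Ccl8 was higher at 2.73 and Cdkn1b lower at -0.74, and 0 in either direction without that library.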
